A study of Mus musculus with 16 samples.

Results

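The comparison described here is the response of MRL/MpJ flexor tendon to injury at 7 days. Its members are 8 of the 16 libraries of the series, namely the injured libraries BI-270, BI-272 and BI-274, with BI-275, and the 4 libraries labelled MRL uninjured. The fit reported first set the 4 injured libraries against uninjured replicates 1, 2 and 3, and the library labelled MRL uninjured replicate 4 entered only a second fit. The members were chosen by label, except that this library was selected on measured expression to stand apart, because it resembled C57 libraries in genes that separate the strains, so the choice of libraries rests on expression and the differences it makes are given as description.

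MRL/MpJ is an inbred mouse strain that closes several kinds of wound with little scar, and C57BL/6J, called C57 below, is the common laboratory strain set against it in this study. The mice were young adult males, bred in-house from purchased stock, with no transgene or deletion in any group. By the study's methods the operated mice were anaesthetised with ketamine and xylazine and then had the opioid buprenorphine, and whether uninjured mice had these drugs is not clear from the sources used here, so the drugs and the cut cannot be told apart. In the injured groups, the deep digital flexor tendon of the third digit of a hind paw was cut through part of its width, and the uninjured groups were uncut tendons of the same strain. Each library came from a single tendon with its sheath and surrounding tissue left on, so the RNA comes from tenocytes and from every other cell in or around the cut. In such bulk RNA, more cells of a type and more RNA per cell cannot be told apart.

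A cut tendon is first filled with a provisional matrix of fibrin and fibronectin, and monocytes, macrophages and other leukocytes enter it. Resident tenocytes and cells of the sheath then divide, secrete collagens with the enzymes that fold and cross-link them, and release proteases that clear damaged matrix. Tendon where it wraps around bone also carries fibrocartilage-type cells, which express genes shared with cartilage. Genes of the cell cycle rise in such tissue, and the account below is of the rises outside the cell cycle and of the genes that fell.

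The total count was between 14315345 and 16829942 in uninjured replicates 1 to 3, 12552424 in the library labelled MRL uninjured replicate 4, and between 18524170 and 23741648 in the injured libraries, so the injured tendons were sequenced more deeply. Values are in CPM, the counts put on a common scale per library, with library sizes adjusted by the trimmed mean of M values (TMM), except that the summed level of a list is in CPM of the unadjusted total count, and 4 values of the injured tendons are always in the order of library number, from BI-270 to BI-275. The tendon markers Scx and Tnmd had between 1196 and 4377 and between 591 and 14692 counts in the 8 MRL libraries. Summed over 14 epidermal markers, uninjured replicate 1 had 714.9 CPM, the other 2 uninjured libraries of the first fit 16.8 and 16.9 CPM, and the injured libraries 19.7 to 74.0 CPM, and the part of such tissue in the falls was not tested. Skeletal muscle markers summed to at most 16.7 CPM in any MRL library.

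In the series 2 libraries went against their labels. Among genes that separated the injured MRL from the injured C57 libraries, 27 had at least 5 CPM in all 4 injured MRL libraries and at most 0.5 CPM in all 4 injured C57 libraries, and 3 had the opposite pattern. Uninjured replicates 1, 2 and 3 of MRL had at least 1 CPM of 27 of the 27 and of 0 of the 3. The library labelled MRL uninjured replicate 4 gave at least 1 CPM of 1 of the 27 and of 3 of the 3, which was the pattern of C57, while the one labelled C57 uninjured replicate 4 had 27 of the 27 and 0 of the 3, which was the pattern of MRL. Neither library was moved to another group. The calls that were lost when the library labelled MRL uninjured replicate 4 was added are named with the second fit, and the C57 values are given with and without the library labelled C57 uninjured replicate 4.

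In the first fit, 14868 genes were tested, and a gene was called where edgeR's quasi-likelihood test gave a Benjamini-Hochberg adjusted p under 0.05 and the log2 fold change was over 1 in size. The injured tendons had 696 genes called higher (4.68% of those tested) and 213 called lower (1.43%). Of the 648 tested genes of the cell cycle, 149 were called higher and 2 lower. Outside the cell cycle, 547 of 14220 genes were called higher (3.85%), with a median log2 fold change of 2.18. In 54 of the 547 the 3 uninjured libraries had no count, and with these at their lower bound the median was 2.14. The 213 genes that fell did so by less, with a median of -1.44, and 5 of them had no count after injury. Injured and uninjured libraries did not overlap in any of the 547 or the 213, against 28.6% of all tested genes, and a call itself favours such genes.

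How firmly these calls stood depended on the 3 uninjured libraries. Without uninjured replicate 1, 2 or 3 the rises outside the cell cycle numbered 183, 195 and 249 and the falls 23, 27 and 40. Without BI-270, BI-272, BI-274 or BI-275 they numbered 400, 345, 575 and 450 rises and 144, 81, 374 and 252 falls. In every one of these 7 fits 136 of the 547 rises and 15 of the 213 falls were called, among them Lyz2, Cd74, Tnc and Adam8 on the side of the rises, and Lect1, Nr4a1, Stk32b, Bambi and Pde7b on the side of the falls. Below, a call described as held passed in all 7. Of the called genes named below, Adam8, Ankle1, Bambi, Capg, Ccl2, Ccl7, Ccl17, Cd36, Cd74, Clec4b1, Col6a3, Cthrc1, Cyp2s1, Fcgr3, Fkbp11, Fosl1, Gsg2, H2-Aa, H2-Eb1, Il1rl1, Il7r, Itgb2, Lect1, Lox, Lrrc59, Ltbp2, Lyz2, Msr1, Nr4a1, P4ha3, Pde7b, Pdpn, Plaur, Psat1, Scd1, Scimp, Serpina3h, Spi1, Stk32b, Tnc, Tnfrsf12a, Tslp and Tyrobp held, and each of the others was lost in at least 1 of the 7.

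Genes by which phagocytes take up antibody-coated material and signal rose widely. Of 23 listed genes of Fc receptors and phagocyte signalling, all of them tested, 16 were called higher and 0 lower, with a median log2 fold change of 2.26 against -0.01 over all tested genes. Fcgr3, a low-affinity receptor for IgG, had 22.9, 34 and 42.4 CPM in the uninjured and 245, 99.7, 145 and 182 CPM in the injured tendons (log2 fold change 2.34 ± 0.34 SE, edgeR adjusted p = 0.00684). Tyrobp, the adaptor that carries the signal of many myeloid receptors, had 19.9, 34.6 and 31.1 CPM and 166, 101, 125 and 283 CPM in the same order (log2 fold change 2.56 ± 0.38 SE, edgeR adjusted p = 0.00747). Spi1, which encodes the myeloid transcription factor PU.1, went from 12.8, 14 and 14.7 CPM to 81.6, 40.9, 53.8 and 49.7 CPM (log2 fold change 2.03 ± 0.26 SE, edgeR adjusted p = 0.00488). The lowest injured library lay above the highest uninjured one in these genes, as in all 547 rises outside the cell cycle. The calls of Fcgr3, Tyrobp and Spi1 held. Itgb2, the beta chain of the leukocyte integrins, rose by 2.55 ± 0.33 (log2, SE), and Cybb, the membrane subunit of the phagocyte oxidase, by 1.62 ± 0.34. With 1 library left out the list had between 10 and 16 calls, the fewest without uninjured replicate 1 or 3.

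Genes of antigen presentation on MHC class II had the largest median of the lists with at least 10 tested members. Of 13 listed genes of dendritic cells and MHC class II, 10 were tested, 7 rose and 0 fell, and the median of those tested was 4.70. Cd74, the invariant chain that escorts class II molecules, had 11.1, 20.7 and 30.1 CPM in the uninjured tendons and 1582, 409, 342 and 721 CPM in the injured ones (log2 fold change 5.21 ± 0.66 SE, edgeR adjusted p = 0.0047). The class II chains H2-Aa and H2-Ab1 rose from 3.51, 7.41 and 5.69 CPM to 456, 83.3, 56.1 and 217 CPM and from 1.08, 4.52 and 8.77 CPM to 495, 127, 87.1 and 229.6 CPM. BI-270 was the highest of the injured libraries in each of these genes, with more than 3 times the level of BI-272 and BI-274. Itgax, the integrin chain known as CD11c, had 0, 0.0706 and 0 CPM before and 1.73, 5.26, 6.61 and 19.7 CPM after injury, with BI-275 highest and BI-270 lowest. The calls of Cd74, H2-Aa and H2-Eb1 held, whereas the adjusted p of H2-Ab1 was 0.0531 and that of Itgax 0.0528 without uninjured replicate 2 (edgeR), and the list had 4 calls without that library.

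Monocyte and macrophage markers rose in part. Of 24 listed and tested markers 9 were called higher and 0 lower, with a median log2 fold change of 1.06. Lyz2, the lysozyme of myeloid cells, had 588, 982 and 905 CPM in the uninjured and 4932, 2812, 3411 and 5066 CPM in the injured tendons (log2 fold change 2.30 ± 0.29 SE, edgeR adjusted p = 0.0047). Ccr2, the receptor that draws monocytes out of bone marrow, went from 0, 0.565 and 3.87 CPM to 216, 52.3, 52.3 and 119.5 CPM (log2 fold change 6.16 ± 1.06 SE, edgeR adjusted p = 0.0123). Msr1, a scavenger receptor, rose by 3.25 ± 0.38, and Trem2, a lipid-sensing receptor of macrophages, by 1.88 ± 0.31 (log2, SE). The other 15 markers did not pass, though 20 of the 24 had a log2 fold change above 0, against 7354 of 14868 tested genes. Those that did not pass included Mrc1, Cd163 and Lyve1, which resident macrophages carry, but also Ly6c2, Arg1, Gpnmb, Csf1r and Adgre1. Mrc1, the mannose receptor, had 34.9, 47.3 and 27.4 CPM and 91.8, 46, 57.7 and 52.4 CPM (edgeR adjusted p = 0.133), and Cd163, the haemoglobin scavenger receptor, 4.15, 6.56 and 26.8 CPM and 11, 8.8, 27.7 and 6.45 CPM (edgeR adjusted p = 0.944), while Lyve1, a hyaluronan receptor, had 65.6, 102 and 114 CPM and 42.3, 35.4, 78.5 and 25.6 CPM (edgeR adjusted p = 0.109). With the library labelled MRL uninjured replicate 4 added Lyve1 was called lower (log2 fold change -1.19, edgeR adjusted p = 0.0421). The summed level of the list was 2652 to 3504 CPM in uninjured replicates 1 to 3 and 5272 to 9146 CPM after injury, without overlap. The call of Ccr2 was lost without uninjured replicate 2 (adjusted p = 0.073, edgeR), and the list then had 4 calls.

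Chemokines, the secreted proteins that draw leukocytes, rose beside these markers. Of 27 listed chemokines and receptors 26 were tested, 14 rose and 0 fell, and the median log2 fold change was 3.79, or 3.23 with 2 genes that had no uninjured count at their lower bound. Ccl2, the main ligand of Ccr2, had 0.702, 4.66 and 3.47 CPM in the uninjured tendons and 246, 240.3, 159 and 476 CPM in the injured ones (log2 fold change 6.58 ± 0.67 SE, edgeR adjusted p = 0.00351). Ccl7, a further Ccr2 ligand, had 0.638, 4.16 and 1.31 CPM and 175, 121, 99.7 and 304 CPM (log2 fold change 6.45 ± 0.70 SE, edgeR adjusted p = 0.00364). BI-275 was the highest and BI-274 the lowest injured library in both, and both calls held. Ccl17, a ligand of Ccr4 on T cells and other leukocytes that was not on the list, went from 0, 0.141 and 0.114 CPM to 23.6, 42.2, 13.7 and 214 CPM. The number of calls on the list was 7 without uninjured replicate 1 or 2 and 18 without BI-274. Ccl genes form a family of close copies, and reads could have been assigned to either of a pair of similar members.

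**Figure D1:**
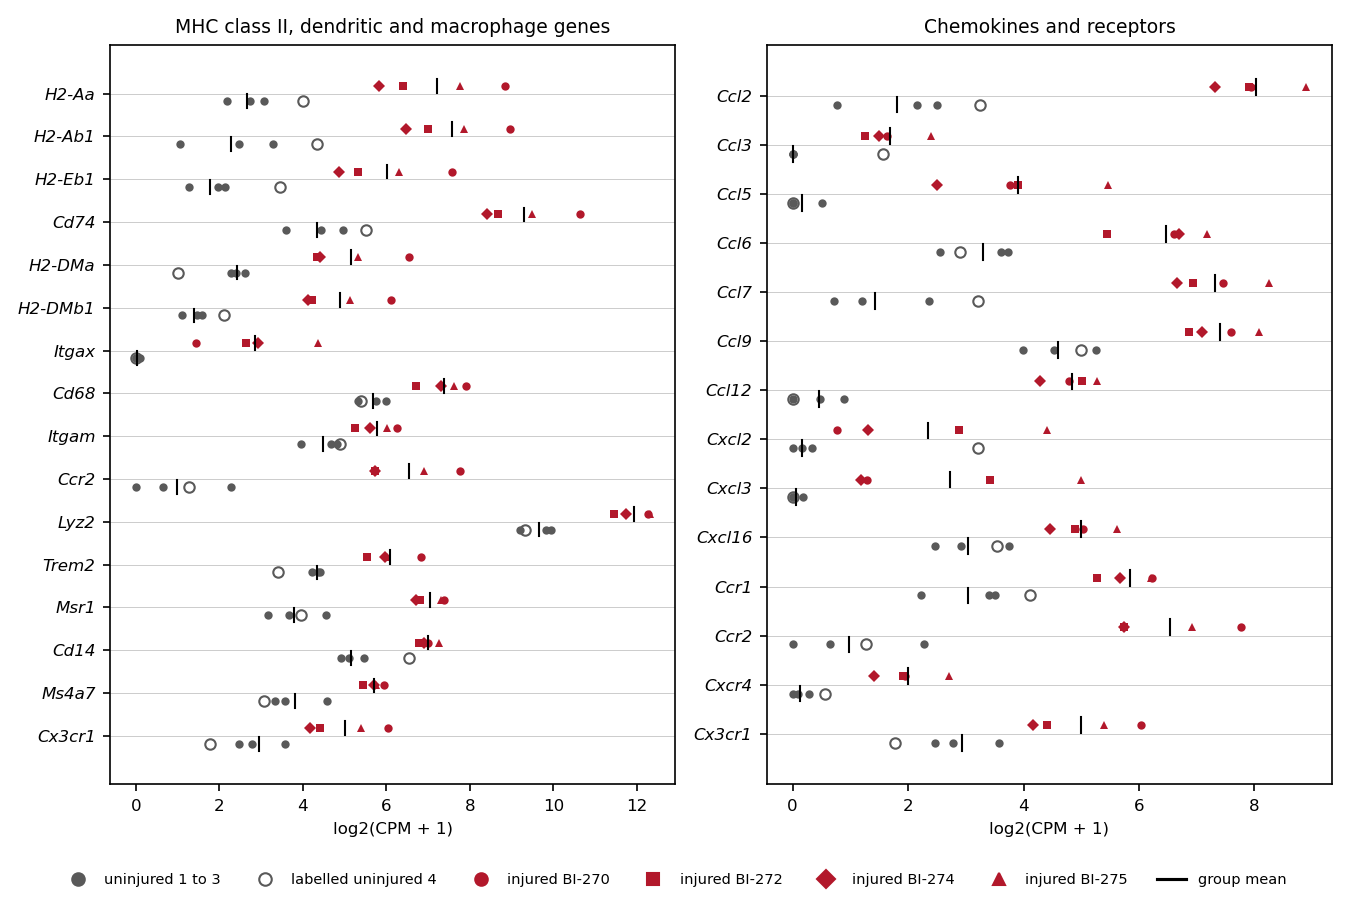
Expression of immune genes called higher, by library, as log2(CPM + 1) on the x axis. Grey filled circles are MRL uninjured replicates 1 to 3, the open circle is the library labelled MRL uninjured replicate 4, red symbols are the 4 injured libraries, and black bars are the means of the 3 uninjured and of the 4 injured libraries. In every gene shown the red symbols lie to the right of the filled grey ones, as in all 547 rises outside the cell cycle. For Ccl3 and Cxcl2 the open circle lies among the red symbols.

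Markers of other leukocytes were low. Of 12 listed neutrophil markers 2 passed the filter and neither was called. S100a8, an abundant calcium-binding protein of neutrophils, had 0, 15 and 5 counts in the uninjured and 28, 89, 49 and 374 counts in the injured libraries, and the defining marker Ly6g had 0 counts in all 4 injured libraries, which allows up to 3 counts in each. Summed over the list, neutrophil markers had 0.0629 to 2.38 CPM in the uninjured libraries of the first fit, 2.87 CPM in the library labelled MRL uninjured replicate 4 and 4.38 to 30.7 CPM after injury, without overlap in the first fit or with S100a8 left out. Of 15 lymphocyte markers only Il7r passed the filter, and without it the summed level was 0.0699 to 2.38 CPM before and 0.126 to 1.51 CPM after injury, with overlap. Il7r, the receptor for interleukin 7, had no count in the 3 uninjured libraries and 5.43, 5.4, 3.74 and 14.7 CPM after injury, at least 38.3-fold higher against the floor of 3 counts per library, while the T cell marker Cd3e had 0, 1, 0 and 1 counts in the injured libraries. Mast cell markers had a summed level of 3.08 to 65.5 CPM before and 0.211 to 60.8 CPM after injury, which overlapped, and 0 of 4 tested markers were called.

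The provisional matrix and the matricellular proteins, which sit in matrix and act on cells, held the 3 genes with the largest gain in CPM among those called higher outside the cell cycle. Of 27 listed genes 22 were tested, 8 rose and 0 fell, and the median log2 fold change was 0.50. Spp1, or osteopontin, showed the largest gain in CPM of any gene called outside the cell cycle. It had 2686, 1759 and 2428 CPM in the uninjured and 4723, 33625, 8729 and 20292 CPM in the injured tendons (log2 fold change 2.88 ± 0.63 SE, edgeR adjusted p = 0.0283). BI-272 and BI-275 were far above BI-270 and BI-274, and the library labelled MRL uninjured replicate 4 gave 8611 CPM, inside the range of the injured tendons, and with it the log2 fold change of Spp1 was 2.12 and no longer passed (edgeR adjusted p = 0.0633). Fn1, fibronectin, rose from 1160.1, 878 and 1659 CPM to 2778, 6623, 2912 and 7347 CPM (log2 fold change 2.00 ± 0.42 SE, edgeR adjusted p = 0.0247), with the same pair of libraries highest. Thbs4, a thrombospondin of tendon and muscle, rose from 1802, 1967 and 2635 CPM to 7294, 4489, 4213 and 5568 CPM (log2 fold change 1.34 ± 0.25 SE, edgeR adjusted p = 0.0171).

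Tnc and Cthrc1 were nearly silent before injury. Tnc, or tenascin C, which is deposited in growing and healing tendon, had 0.383, 0.494 and 2.28 CPM and then 67.5, 125, 44.2 and 181 CPM (log2 fold change 6.58 ± 0.77 SE, edgeR adjusted p = 0.00413). Cthrc1, a secreted protein of cells that make repair matrix, had 0.766, 0.988 and 1.37 CPM and 128, 47.5, 46.2 and 74 CPM (log2 fold change 6.14 ± 0.50 SE, edgeR adjusted p = 0.00266). Both calls held, and both genes were above 40 CPM in every injured library. Ctgf rose by 1.13 ± 0.28, Wisp1 by 2.26 ± 0.45 and Wisp2 by 1.32 ± 0.26 (log2, SE), all of them members of the CCN family of matricellular proteins. Without uninjured replicate 2 the list had 2 calls, and the adjusted p of Spp1 reached 0.123 without uninjured replicate 2, that of Fn1 0.113 without uninjured replicate 2 and that of Thbs4 0.0965 without uninjured replicate 1 (edgeR).

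Some minor collagens rose, and the main chain of tendon did not pass the test. Of 11 fibrillar collagen genes 10 were tested and 2 rose, Col5a1 and Col11a1, which encode minor chains that set fibril diameter. Col5a1 had 506, 466 and 371 CPM and 1009.8, 1966, 996 and 990.5 CPM (log2 fold change 1.47 ± 0.28 SE, edgeR adjusted p = 0.019), with BI-272 far above the other 3 injured libraries. Col1a1, the main chain of tendon fibrils, had 9947, 9779 and 5355 CPM before and 10377, 18544, 12159 and 6624 CPM after injury, with overlapping groups and an edgeR adjusted p of 0.419. Col3a1, the chain of early scar, had 7685, 6294 and 6392 CPM and 15141, 20047, 11839 and 7489 CPM, without reaching the threshold in the first fit (edgeR adjusted p = 0.0895) and with 0.0405 in the second. Of 15 other collagens tested 4 rose. Col6a3 and Col6a2, chains of the beaded filaments around cells, rose by 1.96 ± 0.29 and 1.11 ± 0.28, and Col8a1 and Col12a1 by 1.20 ± 0.20 and 1.00 ± 0.23 (log2, SE). The fold change of Col12a1 lay at the threshold, and its call was lost in 7 of 8 other settings, while that of Col8a1 was lost with the library labelled MRL uninjured replicate 4. Without uninjured replicate 1, 2 or 3, 1 gene of the other collagens and 0 fibrillar collagens were called higher.

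Of 24 tested genes for the folding and cross-linking of collagen, 5 rose and 0 fell. Lox, the oxidase that cross-links collagen and elastin, had 824, 772 and 832 CPM in the uninjured and 2853, 2609, 1643 and 2149 CPM in the injured tendons (log2 fold change 1.52 ± 0.22 SE, edgeR adjusted p = 0.00678), and its call held. Serpinh1, the collagen chaperone of the endoplasmic reticulum, had 371, 410.5 and 345 CPM and 739, 1232, 762 and 769 CPM (log2 fold change 1.22 ± 0.22 SE, edgeR adjusted p = 0.0135). P4ha3, a prolyl hydroxylase subunit, rose by 3.24 ± 0.46 and Loxl1 by 1.66 ± 0.41 (log2, SE). The median of the 24 genes was 0.67, and between 2 and 6 of them were called when 1 library was left out, the fewest without uninjured replicate 1.

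**Figure D2:**
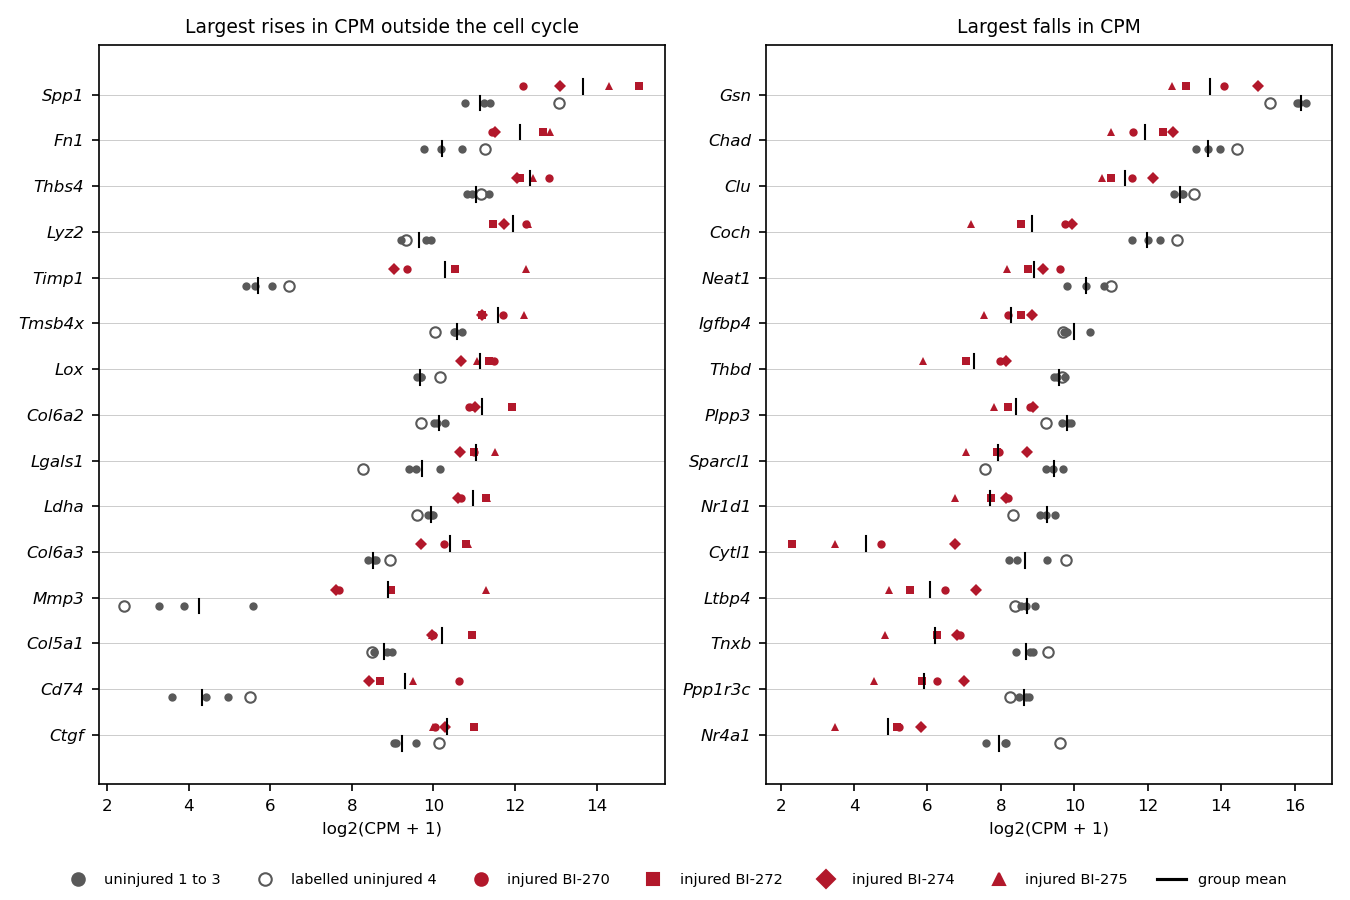
The 15 called genes outside the cell cycle with the largest gain in mean CPM (left) and the 15 with the largest loss (right), by library, as log2(CPM + 1). Symbols are as in the plot of immune genes, with black bars at the mean of each group. The open circle, the library labelled MRL uninjured replicate 4, sits among the red injured symbols for Spp1, Ctgf and Sparcl1.

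Proteases that open up matrix rose together with 1 of their inhibitors. Of 26 listed metalloproteinases and inhibitors 22 were tested, 7 rose and 0 fell, and the median log2 fold change was 0.36. Mmp12, the macrophage elastase, on chromosome 9 from 7344381 to 7369499 of GRCm38, had a total of 1 count in the 3 uninjured libraries and 31.6, 35.4, 132 and 614 CPM after injury, a ratio of summed counts of 8588 with a 95% counting interval of 1541 to 339246. BI-275 had more than 4 times the level of the next library. Mmp3, or stromelysin 1, on chromosome 9 from 7445822 to 7455975, had 13.8, 8.68 and 46.9 CPM in the uninjured and 204, 498, 195 and 2489.5 CPM in the injured tendons (log2 fold change 5.19 ± 1.15 SE, edgeR adjusted p = 0.0299). Timp1, a secreted inhibitor of these enzymes, on chromosome X from 20870166 to 20874735, had 41.3, 48.6 and 65.1 CPM and 647, 1472, 520.2 and 4905 CPM (log2 fold change 5.19 ± 0.86 SE, edgeR adjusted p = 0.0111). BI-275 was the highest injured library in all 3 genes.

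Adam8, a protease of the myeloid cell surface, had the smallest adjusted p of the genes named here, with 0, 0.141 and 0.0569 CPM before and 39.9, 41.4, 40.1 and 48.2 CPM after injury (log2 fold change 9.24 ± 0.48 SE, edgeR adjusted p = 0.000152). The injured libraries lay close together in it, and the call held. Adam12 rose by 5.83 ± 1.03 and Adam19 by 2.24 ± 0.41, and Mmp14, a membrane-bound collagenase, by 1.03 ± 0.21 (log2, SE). Mmp2, an abundant gelatinase of fibroblasts, had 398, 585 and 547 CPM and 292, 263, 473 and 254 CPM, with overlapping groups (edgeR adjusted p = 0.132). Of 8 tested genes of the plasminogen system 1 was called, Plaur, the receptor that holds urokinase at the cell surface, which rose from 18.4, 28.1 and 22.7 CPM to 118, 98.7, 104 and 200.1 CPM (log2 fold change 2.49 ± 0.30 SE, edgeR adjusted p = 0.00424). Without uninjured replicate 2 the protease list had 2 calls, and the adjusted p of Mmp3 reached 0.129 without uninjured replicate 1 and that of Timp1 0.065 without uninjured replicate 2 (edgeR).

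The sequences before the start of some of these genes are shown because they hold letters found before a larger share of the rises. The RefSeq promoter table of GRCm38.p6 held 250 bases before the start for 406 of the 547 genes that rose outside the cell cycle and 10472 of the 14868 tested genes. The AP-1 letters TGANTCA, which read the same on both strands, were before at least 1 start of 13.5% of these 406 rises, 5.41% of 148 matched falls and 5.76% of the 10472 tested genes. The letters GAGGAA or their reverse complement, part of the site of PU.1 and other Ets factors, were before a start of 32.5%, 26.4% and 26.0% of the same genes, and of 4 of the 11 matched genes among the 16 that rose on the Fc receptor list. The E-box letters CACGTG were before a start of 8.13%, 10.1% and 9.61%. These letters were chosen after the calls were known, a match is not a bound site, and the factors were not measured. In the windows that follow, 5′ to 3′ on the strand of the gene, capitals mark TGANTCA or GAGGAA on either strand.
Mmp3, chr9:7445572-7445821, + strand: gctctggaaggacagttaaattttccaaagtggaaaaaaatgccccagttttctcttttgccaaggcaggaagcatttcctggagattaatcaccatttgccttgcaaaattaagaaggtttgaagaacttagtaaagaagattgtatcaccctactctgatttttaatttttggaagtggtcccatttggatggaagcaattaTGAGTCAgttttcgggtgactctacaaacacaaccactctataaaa
Mmp12, chr9:7344147-7344396, + strand: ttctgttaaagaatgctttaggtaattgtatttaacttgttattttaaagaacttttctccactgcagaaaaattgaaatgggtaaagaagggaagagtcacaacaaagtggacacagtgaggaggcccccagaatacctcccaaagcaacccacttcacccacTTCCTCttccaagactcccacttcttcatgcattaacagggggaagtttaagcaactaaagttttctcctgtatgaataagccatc
Mmp12, second start, chr9:7347124-7347373, + strand: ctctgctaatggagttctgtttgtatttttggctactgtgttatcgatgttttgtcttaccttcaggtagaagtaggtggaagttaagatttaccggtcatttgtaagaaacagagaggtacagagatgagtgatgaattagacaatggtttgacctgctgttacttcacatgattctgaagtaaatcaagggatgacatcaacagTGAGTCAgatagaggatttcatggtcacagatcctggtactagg
Plaur, chr7:24462233-24462482, + strand: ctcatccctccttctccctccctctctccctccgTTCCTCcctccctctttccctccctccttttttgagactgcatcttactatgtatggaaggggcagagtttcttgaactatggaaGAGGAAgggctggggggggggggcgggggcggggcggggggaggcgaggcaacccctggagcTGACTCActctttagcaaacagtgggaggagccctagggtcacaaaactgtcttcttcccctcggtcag
Fcgr1, chr3:96293970-96294219, - strand: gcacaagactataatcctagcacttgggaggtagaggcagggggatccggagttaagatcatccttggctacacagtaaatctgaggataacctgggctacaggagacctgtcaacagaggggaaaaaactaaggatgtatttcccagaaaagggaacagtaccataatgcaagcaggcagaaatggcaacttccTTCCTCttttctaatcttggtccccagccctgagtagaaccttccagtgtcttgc
The AP-1 letters begin 46 bases before the start of Mmp3, 44 bases before the second start of Mmp12 and 69 bases before the start of Plaur. Fcgr1, the high-affinity receptor for IgG, which rose by 2.26 ± 0.52 (log2, SE), has the Ets letters 55 bases before its start. Timp1 had no match in its window, and neither had Adam8.

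Signals of the TGF-beta family moved in both directions. Of 20 listed and tested ligands, receptors and inhibitors 5 rose and 2 fell. Inhba, the subunit of activin A, had 108, 89.3 and 82.2 CPM in the uninjured and 243, 477, 201 and 1567 CPM in the injured tendons (log2 fold change 2.74 ± 0.70 SE, edgeR adjusted p = 0.0458). Ltbp2, a latent TGF-beta binding protein of elastic microfibrils, had 4.85, 1.55 and 0.455 CPM and 145, 340.4, 73.2 and 292 CPM (log2 fold change 6.54 ± 0.87 SE, edgeR adjusted p = 0.00536). The library labelled MRL uninjured replicate 4 gave 45.6 CPM of Ltbp2, and with it the log2 fold change was 4.04 and the adjusted p 0.0696 (edgeR). Tgfb1 rose by 1.25 ± 0.26, Ltbp1 by 1.13 ± 0.24 and the activin antagonist Fstl3 by 1.24 ± 0.32 (log2, SE).

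On the falling side, Ltbp4, a further latent TGF-beta binding protein, went from 486, 374 and 411 CPM to 88.6, 45.2, 159.6 and 30.2 CPM (log2 fold change -2.39 ± 0.49 SE, edgeR adjusted p = 0.0224). Tgfbr3, the co-receptor betaglycan, went from 283, 294 and 297 CPM to 153, 106, 147 and 81.5 CPM (log2 fold change -1.25 ± 0.22 SE, edgeR adjusted p = 0.0129). Bambi, a decoy receptor of this family that was not on the list and was picked after its values were seen, fell from 232, 240.3 and 179 CPM to 50.7, 58.3, 79.5 and 42.3 CPM (log2 fold change -1.91 ± 0.23 SE, edgeR adjusted p = 0.00419), and its call held. Among myofibroblast and smooth muscle genes 0 of 18 rose and 2 fell, Synpo2 and Pdgfrb. Acta2, the smooth muscle actin that defines myofibroblasts, had 27.1, 50.2 and 49 CPM and 26.1, 38.7, 59.5 and 62.5 CPM, with overlapping groups (edgeR adjusted p = 0.828). In 6 of the 7 fits with a library left out 0 genes of this list fell, and without BI-274 2 rose. With 1 uninjured library left out, 1 gene of the TGF-beta list was called higher and 0 lower.

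Some genes of metabolism were called higher. Of 20 tested genes of amino acid synthesis and the integrated stress response 4 rose and 0 fell, with a median log2 fold change of 0.76. Psat1, an enzyme of serine synthesis, had 5.49, 3.03 and 5.86 CPM before and 55.7, 49.4, 34.6 and 62.6 CPM after injury (log2 fold change 3.39 ± 0.32 SE, edgeR adjusted p = 0.00346), and its call held. Asns, asparagine synthetase, rose by 1.57 ± 0.33, Mthfd2, a mitochondrial folate enzyme, by 1.15 ± 0.23 and Pycr1, of proline synthesis, by 1.10 ± 0.25 (log2, SE). Of 18 glycolysis genes 5 rose and 0 fell, with a median of 0.67. Ldha, lactate dehydrogenase, had 939, 1011 and 1004 CPM and 1627, 2499.5, 1559 and 2531 CPM (log2 fold change 1.06 ± 0.22 SE, edgeR adjusted p = 0.0251), and Slc16a3, a lactate exporter, rose by 1.63 ± 0.31. Without uninjured replicate 2 or 3 the amino acid list had 1 call. The glycolysis list had 0 calls without uninjured replicate 1, 2 or 3, and 1 of 23 tested genes of oxidative phosphorylation and fatty acid oxidation was called, Cox5a, which rose and was lost in 6 of the 7 fits with a library left out.

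Outside these lists, the largest rises by fold included myeloid and lymphoid genes and 2 of cell division. Cyp2s1, a cytochrome P450, had no count in the 3 uninjured libraries and 11.8, 14.8, 4.44 and 13 CPM after injury, at least 57.5-fold higher. Ms4a4c, Scimp, Clec4b1 and Il18rap, which are expressed by leukocytes, were at least 44.1, 39.9, 33.1 and 27.5-fold higher, and so were Relt, Ctse and Adgrg5 at 26.5, 24.9 and 24.8-fold. R3hdml was at least 37.8-fold and Serpina3h, which GENCODE M21 lists as a transcribed pseudogene of the serpin family, at least 26.1-fold higher. Gsg2, the histone kinase haspin, and Ankle1, a nuclease, act in dividing cells though no cell cycle list held them, and were at least 34.9 and 33.6-fold higher. Each of these bounds is against 3 counts per library, since no uninjured library of the first fit had a count. The calls of Cyp2s1, Scimp, Il7r, Gsg2, Ankle1, Clec4b1, Ccl17 and Serpina3h held. Those of Ctse and Adgrg5 were lost in 6 of 7 fits with a library left out, and both genes had under 0.5 CPM in BI-272.

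The 15 largest gains in CPM also included Tmsb4x, a peptide that binds actin monomers, and Lgals1, a secreted galectin. Tmsb4x went from 1450, 1669 and 1469.9 CPM to 3337, 2315, 2328 and 4732 CPM (log2 fold change 1.06 ± 0.27 SE, edgeR adjusted p = 0.0484), and Lgals1 from 765, 1145 and 671 CPM to 2031, 2026, 1612 and 2920.4 CPM (log2 fold change 1.32 ± 0.27 SE, edgeR adjusted p = 0.0217). The groups did not overlap in either gene, as in all 547 rises outside the cell cycle. The call of Tmsb4x was lost in 6 of 7 fits with a library left out (adjusted p up to 0.176, edgeR).

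Among the falls, the greatest loss was in Gsn, which encodes gelsolin, an actin-severing protein, on chromosome 2 from 35256380 to 35307892. Gsn took between 6.81% and 8.05% of all counts in uninjured replicates 1 to 3, and 1.78%, 0.808%, 3.22% and 0.649% in the injured libraries. In CPM it went from 81612, 68779.6 and 70596 to 17329, 8451, 32549 and 6455 (log2 fold change -2.19 ± 0.51 SE, edgeR adjusted p = 0.0345). The library labelled MRL uninjured replicate 4 gave 4.18%, nearer to BI-274 than to the other uninjured MRL libraries. C57 uninjured replicates 1 to 3 had 4.133%, 4.239% and 3.605%, so its value lay within the range of these uninjured C57 tendons. Without 1 library the adjusted p of Gsn reached 0.119, when uninjured replicate 1 was left out (edgeR). Scin, a relative of gelsolin that was picked after its values were seen, fell from 252, 253 and 289.6 CPM to 69.1, 96.6, 178 and 88.2 CPM (log2 fold change -1.29 ± 0.29 SE, edgeR adjusted p = 0.0316).

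A few genes shared with cartilage fell. Of 15 tested cartilage markers of 19 listed, 3 fell and 0 rose, with a median log2 fold change of -0.56. Chad, chondroadherin, a matrix protein that binds collagen and cells, on chromosome 11 from 94565047 to 94569127, had 16149, 12876 and 10099 CPM in the uninjured and 3108, 5465, 6649 and 2036 CPM in the injured tendons (log2 fold change -1.60 ± 0.39 SE, edgeR adjusted p = 0.0389). Cytl1, a small secreted protein of cartilage, had 348, 613 and 298 CPM and 25.9, 3.94, 107 and 10.2 CPM (log2 fold change -3.51 ± 0.92 SE, edgeR adjusted p = 0.04997). Lect1, or chondromodulin, an inhibitor of vessel growth, had 74.9, 99.8 and 53.2 CPM and 6.21, 6.46, 17.2 and 3.44 CPM (log2 fold change -3.19 ± 0.50 SE, edgeR adjusted p = 0.00863). The call of Lect1 held in the 7 fits of the first comparison, but the library labelled MRL uninjured replicate 4 gave 2.12 CPM, below the injured tendons, and with it the adjusted p was 0.081 (edgeR). Sox9, the factor that defines the cartilage lineage, had 236, 252 and 200.3 CPM and 63.4, 191, 158 and 204 CPM (edgeR adjusted p = 0.326), and Acan, aggrecan, 62.4, 44.1 and 45.7 CPM and 47.1, 229, 91.2 and 345 CPM (edgeR adjusted p = 0.0977), neither of which passed. With the library labelled MRL uninjured replicate 4 added, Acan was called higher, with a log2 fold change of 1.91 (edgeR adjusted p = 0.0421), against the direction of the 3 falls. With any 1 of the 3 uninjured libraries, BI-270 or BI-272 left out, 1 cartilage marker fell. The call of Chad was lost in 5 of those 7 fits and that of Cytl1 in 6, and Cytl1 was also lost in 5 of 8 other settings. The summed level of the list was 24910 to 31220 CPM before and 9539 to 21720 CPM after injury. Without Comp, the member with most counts, it was 11550 to 17050 CPM before and 3357 to 7290 CPM after injury, most of it Chad. Comp and Chad were also on the tenocyte list.

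Coch, Clu and Tnxb were also among the larger losses in CPM. Coch, cochlin, an extracellular matrix protein, had 5184, 3023 and 4119 CPM in the uninjured and 857, 373, 979 and 144 CPM in the injured tendons (log2 fold change -2.80 ± 0.56 SE, edgeR adjusted p = 0.0213). Clu, the extracellular chaperone clusterin, had 7878, 6703 and 7898 CPM and 3013, 2062, 4543 and 1726 CPM (log2 fold change -1.40 ± 0.32 SE, edgeR adjusted p = 0.0318). Tnxb, tenascin X, a spacer of collagen fibrils that is lost in a form of Ehlers-Danlos syndrome, had 472, 439 and 341 CPM and 117, 76.1, 112 and 28 CPM (log2 fold change -2.33 ± 0.41 SE, edgeR adjusted p = 0.0132). BI-275 was the lowest injured library in these 3 genes, and tenascin X and tenascin C thus moved in opposite directions. Thbd, thrombomodulin, fell by 2.08 ± 0.45, Plpp3, a lipid phosphatase, fell by 1.33 ± 0.26, Sparcl1, a collagen-binding relative of SPARC, fell by 1.44 ± 0.33 and the nuclear RNA Neat1 fell by 1.36 ± 0.34 on the log2 scale (SE). The call of Tnxb was lost without uninjured replicate 1 or 2 (adjusted p up to 0.0598, edgeR), and those of Coch and Clu without any 1 of the 3 uninjured libraries (up to 0.084 and 0.118).

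Some genes of the circadian clock fell. Of 17 tested genes of the clock and its outputs 4 fell (23.5%, against 1.43% of all tested genes) and 0 rose. The log2 fold change was below 0 in 16 of the 17, with a median of -0.91, while 7354 of all 14868 tested genes were above 0. Nr1d1, the repressor REV-ERB alpha, had 705, 534 and 594 CPM in the uninjured and 289, 211, 283 and 106 CPM in the injured tendons (log2 fold change -1.46 ± 0.31 SE, edgeR adjusted p = 0.0257). Per1, Per2 and Cry2 encode the repressor complex of the clock. Per1 went from 32.2, 27.9 and 25.8 CPM to 13.2, 11.8, 12.8 and 9.56 CPM and Cry2 from 225, 273 and 221 CPM to 94.6, 95, 122 and 45.9 CPM (edgeR adjusted p = 0.0127 and 0.0213). Per2 went from 24.2, 34.6 and 31.6 CPM to 2.67, 12.1, 11.6 and 4.35 CPM, with BI-270 lowest (log2 fold change -1.97 ± 0.50 SE, edgeR adjusted p = 0.0452). Dbp, a clock output, had 127, 101 and 107 CPM and 63.2, 77.9, 55.6 and 33.8 CPM (edgeR adjusted p = 0.0532), and 13.3 CPM in the library labelled MRL uninjured replicate 4. The list had 0 calls without uninjured replicate 1 or 2, and the hour at which tendons were taken is not given in the sources used here, so its part was not tested.

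Genes that cells switch on within minutes of handling or stimulation were mixed. Of 22 tested immediate early genes 2 rose, Fosl1 and Myc, and 2 fell, Nr4a1 and Nr4a2. Nr4a1, an orphan nuclear receptor, had at least 192 CPM in the uninjured and 36.2, 34.8, 55.2 and 10.3 CPM in the injured tendons (log2 fold change -2.86 ± 0.45 SE, edgeR adjusted p = 0.00917), and its call held. Fosl1, the AP-1 subunit FRA1, had 2.17, 1.27 and 2.28 CPM and 18, 32.6, 19.6 and 46.1 CPM (log2 fold change 3.92 ± 0.45 SE, edgeR adjusted p = 0.00388), and its call held too. Nr4a2 fell by 1.08 ± 0.27 and Myc rose by 1.04 ± 0.20 on the log2 scale (SE). The library labelled MRL uninjured replicate 4 gave 778 CPM of Nr4a1 and 68.6 CPM of Myc, above uninjured replicates 1 to 3, and with it 1 gene of the list rose and 7 fell. How long the tendons were handled is not given in the sources used here, and its part was not tested.

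A few growth factor genes outside the TGF-beta family were called, and the share called higher was near that of all tested genes, 4.68%. Of 18 tested genes of the FGF and IGF axis 3 fell (16.67%, against 1.43% of all tested genes) and 1 rose (5.56%). The median log2 fold change was -0.67. Igfbp4, which binds and restrains IGF, had 887, 1366 and 846 CPM in the uninjured and 292, 372, 457 and 185 CPM in the injured tendons (log2 fold change -1.66 ± 0.30 SE, edgeR adjusted p = 0.0151). Fgfr3, the receptor that restrains growth of cartilage, had 66, 32.7 and 22.8 CPM and 5.18, 4.16, 16.2 and 4.51 CPM (log2 fold change -2.43 ± 0.55 SE, edgeR adjusted p = 0.0321), and Fgf18, one of its ligands, fell by 1.31 ± 0.34 on the log2 scale (SE). Igf1 rose from 105, 103 and 92.6 CPM to 219.6, 183, 159 and 362 CPM (log2 fold change 1.20 ± 0.28 SE, edgeR adjusted p = 0.0328). Among 15 tested Wnt ligands and antagonists, Wnt5b rose by 1.99 ± 0.35 and Wnt9a fell by 1.44 ± 0.36 on the same scale. That was 6.67% of the list in each direction, and the list median was -1.07. The FGF and IGF axis had 0 falls called without uninjured replicate 1 or 2, and Igf1 was called in only 1 of the 7 fits with a library left out, that without BI-274. Neither Wnt gene passed without uninjured replicate 2 or 3.

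The largest falls by fold included Coch, Cytl1 and Nr4a1, described above, and genes of lower level. Ubxn10, a protein of ciliated cells, had 6.19, 2.05 and 2.39 CPM in the uninjured libraries and no count in any injured one, at least 25.9-fold lower, though the call was lost without any 1 of the 3 uninjured libraries. Stk32b, a kinase of little known function, had 17.2, 20.5 and 15.1 CPM and 2.92, 2.21, 4.35 and 1.77 CPM (log2 fold change -2.64 ± 0.39 SE, edgeR adjusted p = 0.00718), and its call held. S100a5, a calcium-binding protein, had 83.1, 96.6 and 45.7 CPM and 15.5, 2.83, 9.13 and 1.24 CPM (log2 fold change -3.38 ± 0.71 SE, edgeR adjusted p = 0.025). The other named falls by fold were of Nsg2, Satb1, Epha5, Synpo2, Tcap, Dapl1, Necab1 and Gng8, with log2 fold changes from -4.54 to -2.53, and each was lost in between 3 and 6 of the 7 fits with a library left out. Ppp1r3c, which targets glycogen synthase and phosphatase to glycogen, fell from 433, 358 and 407 CPM to 75.6, 56.2, 127 and 22.1 CPM (log2 fold change -2.51 ± 0.46 SE, edgeR adjusted p = 0.0154).

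Several further lists had few calls or none. Among 22 tenocyte markers Thbs4 rose and Chad fell, the median log2 fold change was -0.05, and the summed level was 136400 to 145300 CPM before and 98190 to 145800 CPM after injury. Scx, the transcription factor that marks the tendon lineage, had 158, 168 and 107 CPM and 179.9, 136, 125 and 88.8 CPM (edgeR adjusted p = 0.802), and Mkx, a further tendon transcription factor, 136, 84.3 and 99.5 CPM and 124, 112, 83.5 and 46.8 CPM (edgeR adjusted p = 0.709). Tnmd, tenomodulin, had 144, 239 and 119.7 CPM in the uninjured and 604, 77.7, 81.4 and 31.7 CPM in the injured libraries (edgeR adjusted p = 0.891). None of 16 blood endothelial, 12 Schwann cell, 9 epidermal and 5 skeletal muscle markers tested was called in either direction. The 12 tested Schwann cell markers had a median log2 fold change of 0.18. The summed level of all 19 listed was 1254 to 1302 CPM before and 616 to 1079 CPM after injury, without overlap. Without Pmp22, the member with most counts, the sum was 141.5 to 179 CPM before and 95.1 to 174 CPM after injury, with overlap. Summed endothelial markers ran from 38.3 to 246.6 CPM before and from 40.7 to 115.8 CPM after injury, with uninjured replicate 3 highest. Pdpn, of 4 tested lymphatic markers and also expressed by fibroblasts, was called higher, Bmp3 was called lower among 6 bone markers, a call that was lost in all 7 fits with a library left out. The bone list had a median log2 fold change of -1.56 and a summed level of 140.5 to 238 CPM in the uninjured libraries of the first fit, 93.3 CPM in the library labelled MRL uninjured replicate 4 and 34.2 to 96.1 CPM after injury, most of it Ibsp, without which the ranges overlapped. Of 15 adipocyte markers Lpl and Cd36 were called higher and Scd1 lower.

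**Figure D3:**
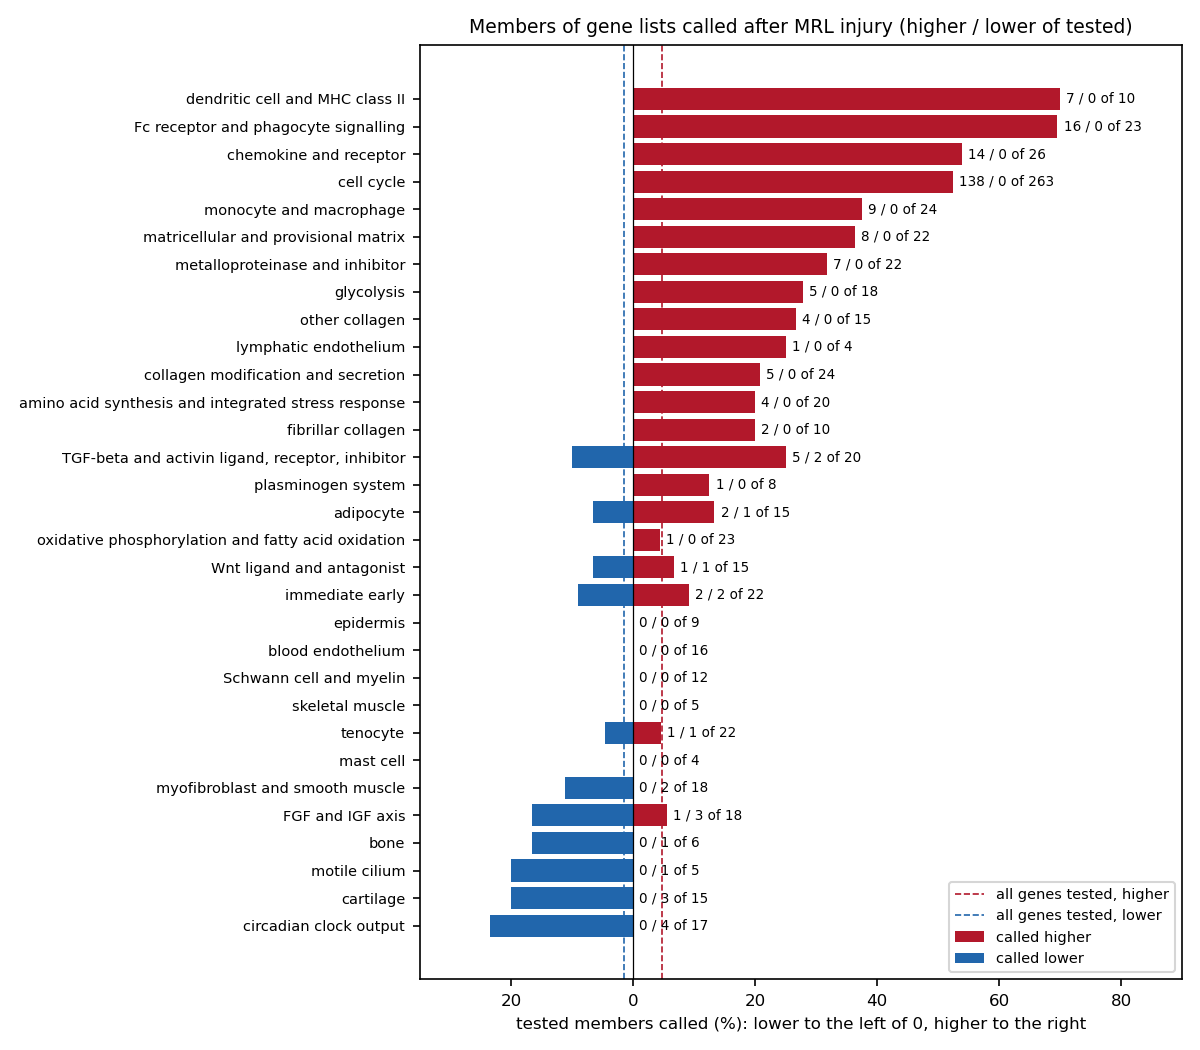
Share of the tested members of each gene list that was called higher (red, right of 0) or lower (blue, left of 0) in the 4 injured against the 3 uninjured libraries, in percent, for lists with at least 4 tested members. Text beside a bar gives the calls higher, the calls lower and the number tested, and the dashed lines mark the shares over all tested genes, 4.68% higher and 1.43% lower.

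The injured tendons were not alike. Of the 547 rises outside the cell cycle BI-275 was the highest library in 311, BI-270 in 145, BI-272 in 77 and BI-274 in 14, and BI-274 was most often the lowest. Of the 213 falls BI-275 was the lowest library in 125 and BI-274 the highest in 133. The median log2 ratio of the 547 genes to the uninjured mean was 1.98 in BI-270, 1.67 in BI-272, 1.56 in BI-274 and 2.21 in BI-275. For the falls it was -1.44, -1.57, -1.08 and -1.92 in the same order. BI-274 thus stood nearest to the uninjured tendons in both directions and BI-275 farthest, whereas MHC class II genes were highest in BI-270 and Spp1 and Col5a1 in BI-272.

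With the library labelled MRL uninjured replicate 4 added, 14274 genes were tested, 750 were called higher (5.25%) and 307 lower (2.15%). Of the 547 rises outside the cell cycle 442 were called in both fits, which is 80.8% of those of the first and 75.3% of the 587 of the second fit. Of the falls 168 were called in both, 78.9% of the 213 and 54.7% of the 307. The injured libraries stayed above all 4 uninjured ones in 504 of the 547 rises and below them in 167 of the 213 falls, against 22.3% of all tested genes without overlap. On the log2 scale, 38 of the 529 rises tested in both fits moved by over 1, compared with 0 of 207 falls. Gpx3, a secreted glutathione peroxidase picked after its values were seen, changed sign, which none of the other genes of the 529 or the 207 did. It had 90.7, 73.1 and 94.5 CPM in uninjured replicates 1 to 3, 155, 269.6, 147 and 207 CPM in the injured libraries and 5113 CPM in the added one, and its log2 fold change went from 1.18 to -2.79.

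In CPM of the unadjusted total count, Gpx3 had 3488, 3739 and 6055 in uninjured replicates 1 to 3 of C57 and 64.5 in the library labelled C57 uninjured replicate 4. Both libraries labelled replicate 4 therefore sat with the other strain in this gene as well. Lgr6, a receptor for R-spondins that was picked in the same way, had 0.447, 0 and 0 CPM in uninjured replicates 1 to 3, 4.52, 54.7, 6.52 and 53.3 CPM after injury and 34.5 CPM in the added library, and its log2 fold change was 7.59 in the first and 1.79 in the second fit. In CPM of the total count, C57 uninjured replicates 1 to 3 had 50.7, 50.9 and 60.8 of Lgr6. Of Sparcl1 they had 408.9, 201.6 and 106.6, and the added library had 191.2. The chemokines Ccl3 and Cxcl2 had 1.96 and 8.23 CPM in the added library and at most 0 and 0.255 CPM in uninjured replicates 1 to 3. Of the called genes described above, Spp1, Ctgf, Sparcl1, Myc, Col8a1, Pycr1, Ltbp2, Lect1, Dapl1, Gng8, Ccl3, Cxcl2, Gpx3 and Lgr6 had an adjusted p over 0.05 in the second fit, from 0.0539 for Pycr1 to 0.534 for Lgr6 (edgeR). Mmp14 then had a log2 fold change of 0.98, under the fold threshold, and Ctse and Adgrg5 did not pass the filter on low counts. Acan, Col3a1 and Lyve1 were called in the second fit and not in the first.

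**Figure D4:**
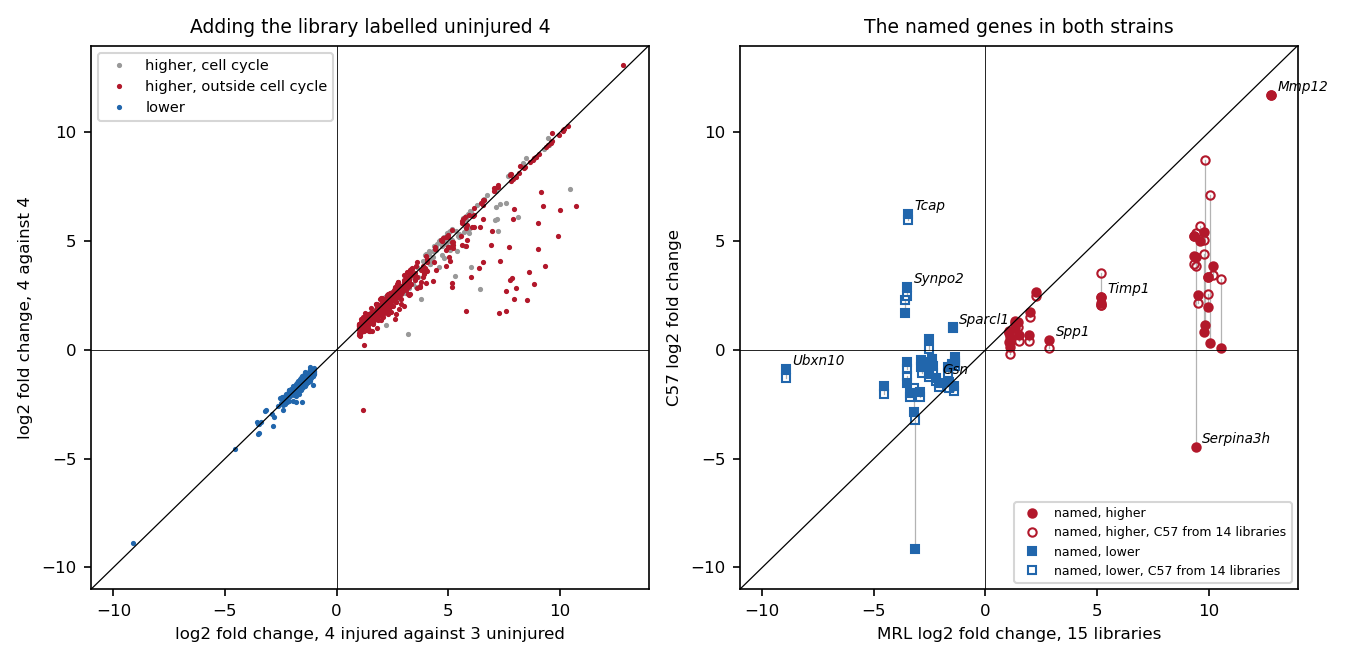
Left, log2 fold changes of called genes in the fit of 4 injured against 3 uninjured libraries (x) and with the library labelled MRL uninjured replicate 4 added (y), where most points lie on the diagonal and a group of red points lies below it. Right, log2 fold changes after injury of the genes named by size in MRL (x) and C57 (y), filled from the fit of 15 libraries and open for C57 without the library labelled C57 uninjured replicate 4, joined by a line for each gene.

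Whether the response differed from that of C57 tendon was tested by the interaction of strain and injury over 15 libraries, all but the one labelled MRL uninjured replicate 4. Of 16650 genes 0 passed (0.0%) with edgeR, the smallest adjusted p was 0.294, and 1818 had an unadjusted p under 0.05. Without the library labelled C57 uninjured replicate 4 as well, 0 passed and the smallest adjusted p was 0.0906. DESeq2 called 223 genes on the 15 libraries and 270 without that library, an alternative added after seeing the data. In C57 the log2 fold change was above 0 in 476 of the 547 MRL rises outside the cell cycle, with a median of 1.31, and below 0 in 171 of the 213 falls, with a median of -0.67. Without the library labelled C57 uninjured replicate 4 these counts were 522 and 170 and the medians 1.49 and -0.73. These 2 comparisons share no library. Some C57 libraries held RNA of other tissues. Skeletal muscle markers summed to 94300 CPM in the injured C57 library BI-181 and 2930 CPM in BI-183, against 13.1 and 15.1 CPM in BI-184 and BI-185. Epidermal markers summed to as much as 66580 CPM among the libraries labelled C57 uninjured. The part of such tissue in the C57 values and in the interaction was not tested.

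For single genes, the values of both strains from the fit of 15 libraries stand side by side, without adjustment for muscle or epidermal RNA in C57 libraries. Spp1 had a log2 fold change of 2.86 in MRL tendon and 0.45 in C57, a difference of 2.41 ± 0.97 (SE, edgeR interaction adjusted p = 0.412). Inhba had 2.73 and -0.11, and Timp1 5.18 and 2.41. Sparcl1 had -1.46 in MRL and 0.99 in C57, a difference of -2.45 ± 0.56 (SE, edgeR interaction adjusted p = 0.344), and Mmp2 had -0.69 and 1.81, a difference of -2.50 ± 0.44 (SE, edgeR interaction adjusted p = 0.294). By DESeq2 the adjusted p of the difference was 0.00692 for Sparcl1, 8.97e-05 for Mmp2, 0.181 for Spp1, 0.0671 for Inhba and 0.139 for Timp1 on the 15 libraries, and 0.00503, 0.000217, 0.018, 0.0906 and 0.13 in the same order on 14. The call on Sparcl1 and Mmp2 thus differed between the tools on both sets of libraries, and that on Spp1 on 14. Without the library labelled C57 uninjured replicate 4 the C57 values were 0.09 for Spp1, -0.38 for Inhba, 2.08 for Timp1, 1.05 for Sparcl1 and 1.75 for Mmp2. Tcap, a muscle protein, reached 3121 CPM of the total count in the injured C57 library BI-181 and 120.9 in BI-183. It had 1.5 and 1.09 in BI-184 and BI-185, so its C57 value rests on BI-181 and BI-183. Serpina3h had 23.3 CPM in the library labelled C57 uninjured replicate 4 and none in C57 uninjured replicates 1 to 3.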

How the data were processed

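RNA-seq libraries of mouse flexor tendon were compared. Total RNA of single tendons was sequenced as single-end reads, which the authors trimmed with Trimmomatic 0.36 and mapped with STAR 2.5.2b to GRCm38.p5, per the submitters' processing notes, which also name Subread 1.5.0p3 and featureCounts. The gene annotation and strand setting are not given in the sources used here, so counts of overlapping genes and of close gene copies are uncertain. The methods name a low-input amplification kit and the labels a TruSeq kit. The deposited values are counts that the authors did not normalize, all whole, over 49568 gene symbols.

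Genes of low count were dropped with the expression filter of edgeR, TMM factors were computed, and injured and uninjured MRL libraries were compared with the robust quasi-likelihood test of edgeR 4.0.16 in R 4.3.3, with Benjamini-Hochberg adjustment. The SE of a log2 fold change was its size over the square root of F. Injured libraries are separate animals, without replicate numbers. Cell cycle genes were those of a listed set, the S and G2/M genes of Seurat 5.3.0, and Reactome sets matched by Entrez identifier. The members, gene lists and tests were chosen with earlier results of these data known. Genes named were the 15 largest rises outside the cell cycle and 15 largest falls by fold, without overlap of the groups and with a mean of at least 50 counts in the higher one, the 15 rises and 15 falls with the largest difference in mean CPM, and examples from the lists. Predicted genes were counted and not named. Coordinates are those of GENCODE M21, and promoter sequences those of RefSeq. Alternatives were DESeq2 1.42.0, other normalizations and filters, thinning to 14315345 counts, one fit over 15 libraries, and leaving out each library. The floor was 3 counts per library, 0.126 to 0.239 CPM of the total count, and intervals and floors cover counting error only. The tests were checked on simulated counts.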

Additional observations from a re-analysis of the deposited data

Results flagged for a closer look

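In some named genes 1 of the 4 injured libraries stood apart from the other 3, with a gap to its neighbour in CPM past the 95% critical value of Dixon's test. Chance alone gives such a gap in about 1 in 20 groups, and the genes were not independent. BI-275 stood apart with 14.7 CPM of Il7r, 213.5 CPM of Ccl17 and 2490 CPM of Mmp3, and with 150.7 CPM of Cox5a, a subunit of cytochrome oxidase. BI-272 stood apart with 3864 CPM of Col6a2, 1966 CPM of Col5a1 and 1232 CPM of Serpinh1, which were all higher there than in the other injured libraries. BI-274, often the injured library nearest to the uninjured tendons, stood apart with 0.783 CPM of Satb1 and 16.2 CPM of Fgfr3, both higher than in the other 3, with 315 CPM of Capg, an actin-capping protein, and with 92.7 CPM of Lpl, lipoprotein lipase. BI-270 stood apart with 604 CPM of Tnmd, the tendon marker tenomodulin, and without it the log2 fold change of Tnmd was -1.42.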

How the results depend on the processing

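No paired analysis was possible because the injured libraries carry no replicate number. With DESeq2 in place of edgeR 1157 genes were higher, 968 of them outside the cell cycle, and 593 lower, so that 66.1% of calls were higher against 76.6%, and the interaction had 223 calls, or 270 on 14 libraries, without the one labelled C57 uninjured replicate 4, a setting chosen after seeing the data. In one fit over 15 libraries of both strains 376 MRL genes were higher, 307 outside the cell cycle, and 126 lower. Other settings left these counts within 1.5 times. With 1 library left out, the genes higher ranged from 271 to 736, those outside the cell cycle from 183 to 575 and those lower from 23 to 374, and the interaction had 0 calls in each fit. The cause was not tested beyond the number of libraries. Log2 fold changes of the genes named kept their sign except Gpx3 with the library labelled MRL uninjured replicate 4 added, -2.79, and the following when 1 library was left out, none of which was called in the first fit: Cd163 ranged from -0.52 to 1.33, Acta2 from -0.087 to 0.32, Scx from -0.33 to 0.00087, Tnmd from -1.42 to 0.59 and Fmod from -0.068 to 0.21. Of 2557 comparisons over 171 genes, 1963 kept their side of the threshold, 572 lost it, 12 gained it and 10, in 6 genes, changed sign.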

Other observations

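Some groups of called genes outside the lists were picked after their values were seen and are given as values only. Several genes of the early secretory pathway were called higher. Lrrc59, a membrane protein of the endoplasmic reticulum, rose by 1.37 ± 0.16 (log2, SE, n = 4 against 3 libraries), and the receptors Kdelr2 and Kdelr3, which return proteins to it, by 1.19 ± 0.25 and 1.14 ± 0.20. Fkbp11, a prolyl isomerase of secretory cells, had 10, 8.96 and 5.52 CPM in the uninjured and 44.2, 65, 41.6 and 129 CPM in the injured tendons (log2 fold change 3.10 ± 0.46 SE, edgeR adjusted p = 0.00731). Rcn1 and Erp29, lumenal proteins of the same compartment, rose by 1.08 ± 0.19 and 1.02 ± 0.23.

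Genes of actin-binding proteins were called in both directions. Pfn1, profilin, had 432, 471 and 395 CPM before and 975, 948, 825 and 1404 CPM after injury (log2 fold change 1.26 ± 0.21 SE, edgeR adjusted p = 0.011), and Cfl1, cofilin, 441, 496 and 421 CPM and 820.1, 939.7, 803 and 1218 CPM (log2 fold change 1.06 ± 0.19 SE, edgeR adjusted p = 0.0136). Tagln2 rose by 1.02 ± 0.17 and Capg by 1.47 ± 0.15 (log2, SE), whereas Gsn and Scin, of the gelsolin family to which Capg also belongs, fell. With the library labelled MRL uninjured replicate 4 the adjusted p of Capg was 0.154 (edgeR), and the log2 fold changes of Tagln2, Erp29 and Pde3b were 0.95, 0.99 and -0.93, under the fold threshold.

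Several cytokine and receptor genes were also called. Osm, oncostatin M, had no count in the 3 uninjured libraries and rose at least 11.9-fold with injury, while Il11ra1, the receptor of interleukin 11, fell from 268, 276 and 239.5 CPM to 109, 88.6, 155 and 50.3 CPM (log2 fold change -1.37 ± 0.31 SE, edgeR adjusted p = 0.033). Il1rl1, the receptor of interleukin 33, had 0.702, 1.2 and 0.342 CPM and 111, 176, 34.6 and 118 CPM (log2 fold change 7.22 ± 0.69 SE, edgeR adjusted p = 0.00346), and Tslp, a cytokine of barrier tissues, 1.72, 5.58 and 2.68 CPM and 52.7, 108, 20.6 and 96.5 CPM (log2 fold change 4.39 ± 0.66 SE, edgeR adjusted p = 0.00772). Tnfrsf12a, the receptor of TWEAK, had 20.7, 37.7 and 28.9 CPM and 173, 203, 133 and 326 CPM (log2 fold change 2.84 ± 0.35 SE, edgeR adjusted p = 0.00441). Ptgs2, the inducible cyclooxygenase, had 0, 1.06 and 0.342 CPM and 7.24, 35.5, 3.78 and 184 CPM (log2 fold change 6.97 ± 1.68 SE, edgeR adjusted p = 0.0387), and with the library labelled MRL uninjured replicate 4 its adjusted p was 0.0532 (edgeR).

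Enpp1 and Ank, which make and export pyrophosphate, an inhibitor of mineral, rose from 149.9, 156 and 128 CPM to 399, 831, 246 and 773 CPM (log2 fold change 1.96 ± 0.40 SE, edgeR adjusted p = 0.0224) and from 150.4, 165 and 173 CPM to 279.6, 898, 367 and 749.7 CPM (log2 fold change 1.82 ± 0.39 SE, edgeR adjusted p = 0.0269). Irs2, an insulin receptor substrate, fell from 112, 125 and 116 CPM to 28.8, 14.6, 36 and 9.29 CPM (log2 fold change -2.40 ± 0.40 SE, edgeR adjusted p = 0.0113) and Phkg1, a phosphorylase kinase subunit, fell from 18.9, 13.1 and 9.68 CPM to 2.1, 1.72, 5.7 and 2.95 CPM (log2 fold change -2.15 ± 0.49 SE, edgeR adjusted p = 0.0323). The phosphodiesterases Pde3b, Pde7b and Pde9a fell by 1.04, 1.82 and 1.57 on the log2 scale. The calls of Capg, Fkbp11, Il1rl1, Lrrc59, Pde7b, Tnfrsf12a and Tslp were made in all 7 fits with a library left out, and each of the others here was lost in at least 1. Clec3b, tetranectin, fell by 1.97 ± 0.44, and Bmp5 by 2.13 ± 0.44 (log2, SE).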
